A study of Homo sapiens with 9 samples.

Results

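The genes described here are 10 members of the plexin, neuropilin and semaphorin families: the plexins PLXNA1, PLXNA2, PLXNA4, PLXNB1 and PLXNB2, the neuropilins NRP1 and NRP2, and the semaphorins SEMA3C, SEMA4B and SEMA6B. They were 10 of the 60676 genes in the deposited table of fragments per gene. They were chosen by their function and by the measured fold changes of PLXNA4, which was higher after knockdown of the long noncoding RNA LITATS1, and SEMA6B, which was lower. Their values against the control hairpin are therefore given as a description: calls among them are counted only beside the share of all genes called, and support nothing. All samples were A549 cells, a human lung adenocarcinoma line, grown in medium with fetal bovine serum and transduced overnight with a lentivirus that expresses a short hairpin RNA. Control cells carried a non-targeting hairpin (shNT). The other 2 groups carried independent hairpins against LITATS1 (shLITATS1-1 and shLITATS1-2). Puromycin was added after 2 days of culture to select transduced cells, and RNA was taken after another 3 days. All groups thus carried a hairpin and were selected alike, in bulk cultures of a single line. Each group had 3 libraries, which the study calls biological replicates. The labels do not say whether these were separate transductions, so the errors measure the spread between these libraries. The common biological coefficient of variation in the fit of all 9 libraries was 2.71%. The p-values below rest on that spread and need not hold across separate transductions.

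Plexins are transmembrane receptors for semaphorins. Their cytoplasmic part holds a domain that turns off small GTPases of the Ras and Rap kind. Secreted class 3 semaphorins mostly reach A-class plexins through the co-receptors NRP1 and NRP2, which also bind forms of VEGF, whereas membrane-bound semaphorins bind plexins directly. In epithelia and carcinoma cells these proteins act on cell adhesion, migration and the cytoskeleton, beside their better known roles in axon guidance and vessel growth.

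The knockdown was visible in each library. LITATS1 (chr1:37454879-37474411, minus strand, GRCh38) stood at 15.1 ± 1.51 CPM (fragments of a gene relative to the library's gene fragments, scaled by TMM factors; SD, n = 3) with shNT. It stood at 3.33 ± 0.405 with shLITATS1-1 and at 3.02 ± 0.321 with shLITATS1-2. The libraries held 19610514 to 19989652 fragments assigned to genes. Unaligned fragments made up 3.66% to 3.86% of the shNT libraries, 5.53% to 5.57% with shLITATS1-1 and 5.39% to 5.50% with shLITATS1-2. The part of this difference in the values below was not tested. The 10 epithelial and A549 markers summed to between 19210 and 19618 CPM with shNT, to between 24600 and 25152 with shLITATS1-1 and to between 13518 and 13975 with shLITATS1-2. They did not move together. ALDH1A1 followed the sum (6351, 9809 and 3517 CPM on average), NQO1 was lower with both hairpins (2223, 1525 and 1235) and KRT19 was higher with both (81.0, 110.0 and 161.9). Fibroblast markers summed to at most 5.83 CPM, endothelial markers to at most 1.26 and immune markers to at most 6.08 in any library. The 5 neuron markers summed to between 78.5 and 81.1 CPM with shNT, between 115.6 and 117.8 with shLITATS1-1 and between 61.9 and 67.3 with shLITATS1-2, most of it SNAP25 (64.8, 96.7 and 48.6 CPM on average). The hairpins changed a large share of the transcriptome: 61.0% of 15500 tested genes were called with shLITATS1-1 and 56.7% with shLITATS1-2 against shNT (adjusted p under 0.05 in edgeR's quasi-likelihood fit). Both comparisons use the same 3 control libraries.

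PLXNA1 and PLXNA2 were the A-class members for which RefSeq gives a promoter window clear of annotated exons, and both were higher with each hairpin. Their 250 bases upstream of the RefSeq start are shown to set the sequence beside the counts, with GGCGC or its reverse complement GCGCC, letters known to bind SMAD proteins, in capitals. The first is chr3:126982865-126983114 on the plus strand and the second chr1:208244385-208244634 on the minus strand (GRCh38.p14), and no GENCODE 29 exon overlaps either. No GENCODE 29 transcript holds the 50 bases after either RefSeq start, so the annotation used for the gene coordinates here has no transcript from these starts. In GENCODE 29, PLXNA1 starts at chr3:126988594, well downstream of its window, and PLXNA2 starts at chr1:208244320, close to its window. Whether either window drives the transcripts counted was not tested.
PLXNA1: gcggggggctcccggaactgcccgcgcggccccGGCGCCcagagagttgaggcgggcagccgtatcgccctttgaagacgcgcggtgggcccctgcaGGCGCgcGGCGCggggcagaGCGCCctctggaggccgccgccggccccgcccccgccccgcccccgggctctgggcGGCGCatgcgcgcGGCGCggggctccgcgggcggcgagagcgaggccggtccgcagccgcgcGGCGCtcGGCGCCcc
PLXNA2: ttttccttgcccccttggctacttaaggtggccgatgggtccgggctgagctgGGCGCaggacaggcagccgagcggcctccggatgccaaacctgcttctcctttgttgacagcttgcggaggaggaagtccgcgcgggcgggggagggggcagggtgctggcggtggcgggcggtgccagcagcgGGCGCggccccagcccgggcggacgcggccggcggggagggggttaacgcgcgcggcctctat
PLXNA1 held these letters 10 times, counted on both strands so that GGCGCC gives overlapping matches, and PLXNA2 held them 2 times. The letters GGGCGG, the core of a GC box, occurred 5 times in the PLXNA1 window and 3 times in that of PLXNA2. Among all 35116 RefSeq windows of this length, 44.5% held GGCGC and 42.6% held GGGCGG, so both are common in promoters. The short SMAD letters CAGAC were in neither window, on either strand. Nor was the AP-1 site TGANTCA there, or the E-box letters CAGGTG, or the TATA-box letters TATAAA. These matches describe letters, not binding.

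PLXNA4 (chr7:132123332-132648688, minus strand), an A-class plexin that pairs with neuropilins and also binds class 6 semaphorins directly, was at a low level in control cells. Its counts were 12, 17 and 18 fragments with shNT, 70, 96 and 130 with shLITATS1-1 and 108, 91 and 104 with shLITATS1-2. On the CPM scale these were 0.614, 0.869 and 0.924, then 3.68, 5.05 and 6.84, then 5.21, 4.38 and 4.99. Every hairpin library lay above every control library, and the widest spread was within shLITATS1-1. The log2 fold change was 2.68 (SE 0.22) with shLITATS1-1 and 2.59 (SE 0.22) with shLITATS1-2. In bulk RNA, more cells with the transcript and more transcript per cell cannot be told apart.

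PLXNA2 (chr1:208022242-208244320, minus strand), another A-class receptor that binds class 6 semaphorins, was also higher with both hairpins, from a higher control level. Its values were 9.42, 10.9 and 7.85 CPM with shNT, 22.8, 23.6 and 22.5 with shLITATS1-1 and 26.4, 22.4 and 25.5 with shLITATS1-2. The control libraries were well below all hairpin libraries, and the hairpin groups overlapped each other. Against shNT it was 1.29 (log2, SE 0.084) higher with shLITATS1-1 and 1.40 (SE 0.081) higher with shLITATS1-2.

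PLXNA1 (chr3:126988594-127037392, plus strand), the A-class plexin with the highest level per length in these cells and a partner of NRP1 in SEMA3A reception, was higher by unequal amounts. It stood at 57.4, 56.4 and 53.1 CPM with shNT, 66.7, 68.8 and 63.3 with shLITATS1-1 and 95.4, 96.7 and 97.3 with shLITATS1-2. The 3 groups did not overlap. The log2 fold change against shNT was 0.25 (SE 0.044) with the first hairpin and 0.79 (SE 0.042) with the second.

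Of the B-class plexins, PLXNB2 (chr22:50274979-50307627, minus strand), a receptor for SEMA4C, measured 169.6, 171.9 and 158.8 CPM with shNT, 149.4, 146.3 and 149.1 with shLITATS1-1 and 243.5, 239.9 and 229.3 with shLITATS1-2. It was below the controls with one hairpin and above them with the other, with log2 fold changes of -0.17 (SE 0.034) and 0.51 (SE 0.033). PLXNB1 (chr3:48403854-48430051, minus strand), the receptor for SEMA4D, measured 26.3, 29.3 and 29.7 CPM with shNT, 27.9, 25.7 and 26.6 with shLITATS1-1 and 24.8, 24.3 and 26.4 with shLITATS1-2. Its groups overlapped in every pairing, with a log2 fold change of -0.087 (SE 0.061) for the first hairpin and -0.18 (SE 0.061) for the second. The second value was -0.15 without shNT replicate 3 and also without shLITATS1-2 replicate 2, and the gene was then not called.

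**Figure D1:**
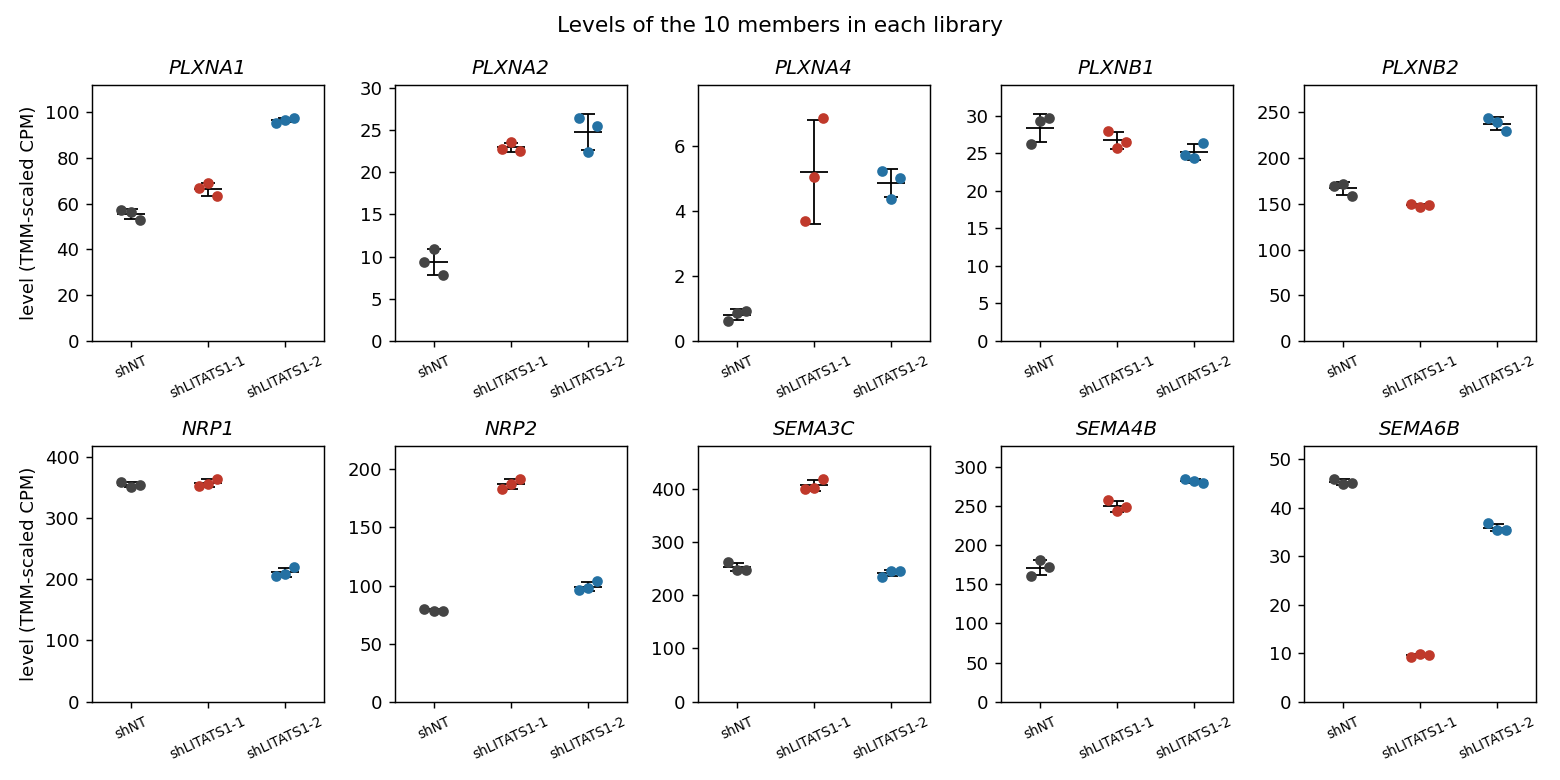
TMM-scaled CPM of the 10 members in each of the 9 libraries, by group, with the group mean. PLXNA4 and PLXNA2 lie above the controls with both hairpins, SEMA6B lies lowest with shLITATS1-1, and the 3 groups of PLXNB1 overlap.

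The neuropilins stood furthest from the controls with different hairpins. NRP1 (chr10:33177492-33336262, minus strand), co-receptor for SEMA3A and VEGFA, measured 358.5, 350.6 and 354.0 CPM with shNT and 352.2, 355.1 and 363.4 with shLITATS1-1, which overlapped. With shLITATS1-2 it measured 205.7, 207.8 and 219.1, all below the other 6 libraries. Its log2 fold change was 0.010 (SE 0.030) with the first hairpin and -0.75 (SE 0.031) with the second; the first of these was -0.008 with library size alone. NRP2 (chr2:205681990-205798133, plus strand), co-receptor for SEMA3F and VEGFC, stood furthest away with the first hairpin. It measured 79.8, 78.4 and 78.5 CPM with shNT, 183.0, 187.1 and 191.7 with shLITATS1-1 and 96.1, 97.5 and 103.8 with shLITATS1-2. No libraries overlapped between groups, and the log2 fold change was 1.25 (SE 0.037) with shLITATS1-1 and 0.33 (SE 0.039) with shLITATS1-2. Antisense genes share exon bases with both neuropilins, but AL121748.2 held 3 fragments over all libraries against 54268 for NRP1, and AC007362.1 held 6 against 21485 for NRP2.

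Among the ligands, SEMA3C (chr7:80742538-80922359, minus strand), a secreted class 3 semaphorin that signals through neuropilins, was higher with the first hairpin. It measured 261.6, 247.7 and 247.6 CPM with shNT, 399.9, 400.3 and 417.7 with shLITATS1-1 and 234.0, 244.5 and 245.6 with shLITATS1-2. Its log2 fold change was 0.69 (SE 0.031) and then -0.064 (SE 0.032), and all shLITATS1-2 libraries lay just below the lowest control. The second value was 0.049 with library size alone as the scaling, and -0.080 without shNT replicate 2, where the gene was called.

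SEMA4B (chr15:90160604-90229679, plus strand), a transmembrane semaphorin, was higher with both hairpins. It measured 161.2, 180.5 and 172.1 CPM with shNT, 257.3, 243.3 and 249.4 with shLITATS1-1 and 284.5, 281.5 and 279.2 with shLITATS1-2. The 3 groups were separate, with log2 fold changes of 0.55 (SE 0.034) and 0.72 (SE 0.033).

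SEMA6B (chr19:4542593-4559808, minus strand), a transmembrane ligand of PLXNA4 and PLXNA2, was the member called lower with both hairpins, by very different amounts. It measured 45.9, 44.8 and 45.0 CPM with shNT, 9.19, 9.79 and 9.68 with shLITATS1-1 and 36.8, 35.4 and 35.5 with shLITATS1-2. The groups did not overlap, and the log2 fold change was -2.24 (SE 0.066) with the first hairpin and -0.33 (SE 0.051) with the second. The receptor PLXNA4 and this ligand thus moved in opposite directions with both hairpins, as the choice of members fixed.

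All 10 members passed the filter on low counts, PLXNA4 with 12 to 18 fragments in the control libraries. With shLITATS1-1, 6 members were called higher, against 30.5% of all tested genes, and 2 lower, against 30.5%. With shLITATS1-2, 6 were called higher, against 27.8%, and 3 lower, against 28.9%. The libraries of 8 members did not overlap between shLITATS1-1 and shNT, beside 64.2% of all tested genes, and those of 9 members did not overlap between shLITATS1-2 and shNT, beside 59.6%. The median log2 fold change of the members was 0.40 with shLITATS1-1 and 0.42 with shLITATS1-2, beside -0.0070 and -0.0040 for all tested genes. PLXNA1, PLXNA2, PLXNA4, NRP2 and SEMA4B were called higher with both hairpins, as were 15.2% of all genes. SEMA6B was called lower with both, as were 16.0%. PLXNB2 was called in opposite directions, as were 9.01%. The members were picked with these values known, so the shares say nothing further about them.

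**Figure D2:**
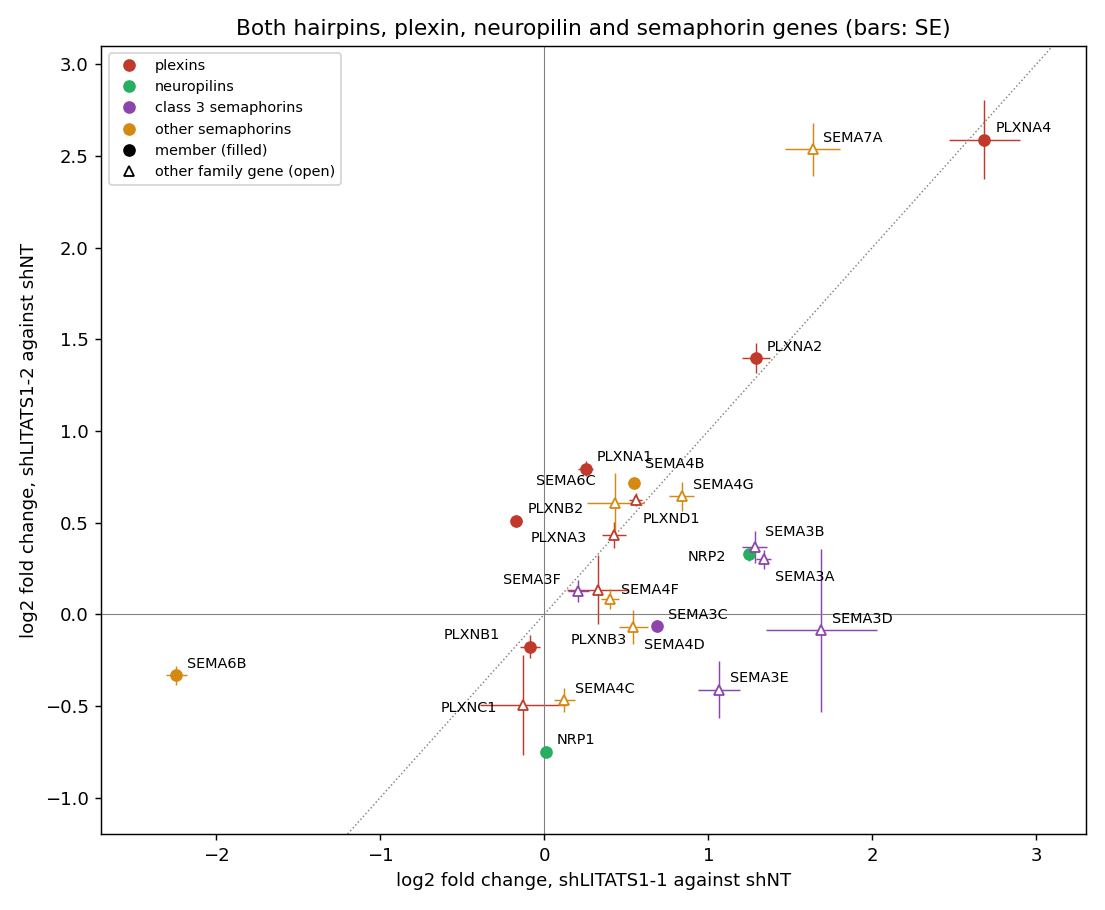
Log2 fold change against shNT with shLITATS1-1 (horizontal) and shLITATS1-2 (vertical) for the tested plexin, neuropilin and semaphorin genes, with bars of 1 SE; both axes share the 3 control libraries. PLXNA4 and PLXNA2 lie near the dotted line of equal change, while SEMA6B (-2.24, -0.33), NRP1 (0.010, -0.75) and NRP2 (1.25, 0.33) lie away from it.

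The hairpins were then compared with each other, a contrast that the choice of members did not name, although it rests on the same hairpin libraries. Of the members 7 were called in the edgeR fit, beside 60.9% of all tested genes. SEMA6B, which was chosen for its fall, was 1.91 (log2, SE 0.068) higher with shLITATS1-2 than with shLITATS1-1, given as a description. PLXNB2 was 0.68 higher (SE 0.034, adjusted p = 7.56e-29, edgeR), PLXNA1 0.54 higher (SE 0.041, adjusted p = 3.15e-19) and SEMA4B 0.17 higher (SE 0.032, adjusted p = 4.35e-06). Both neuropilins and the secreted ligand went the other way. NRP2 differed by -0.92 (SE 0.035, adjusted p = 6.15e-35), NRP1 by -0.76 (SE 0.031, adjusted p = 1.12e-33) and SEMA3C by -0.75 (SE 0.031, adjusted p = 3.04e-33). In each of these genes the 3 libraries of one hairpin lay apart from the 3 of the other, as they did for 64.2% of all genes.

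For PLXNA4, which was chosen for its rise, the difference was -0.095 (SE 0.14). It did not pass the threshold for PLXNA2 (0.11, SE 0.069, adjusted p = 0.168) or PLXNB1 (-0.089, SE 0.062, adjusted p = 0.211; edgeR). Their errors leave room for small differences in either direction. Without shLITATS1-1 replicate 3, which held 130 PLXNA4 fragments, the PLXNA4 difference was 0.15, and with library size alone in place of TMM factors it was 0.037, as PLXNB1 was 0.042. Without shLITATS1-2 replicate 2, PLXNA2 differed by 0.18 and passed. In this contrast 4 members were called higher and 3 lower, beside 30.7% and 30.2% of all tested genes.

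Levels of different genes were compared per length, as TPM (transcript abundance relative to the library, from merged exon lengths). In control cells PLXNB2 led the 9 plexins at 68.4 ± 3.15 TPM (SD, n = 3), and PLXNA4 was the lowest at 0.146 ± 0.0297. PLXND1 came next after PLXNB2, at 27.8 ± 1.20, then PLXNA1 at 15.1 ± 0.674 and PLXNB1 at 8.69 ± 0.556. The values of these leading plexins were separated by more than their SDs. NRP1, at 91.5 ± 1.14 TPM, exceeded NRP2, at 16.9 ± 0.218. Of the semaphorins, SEMA3C stood first at 119.8 ± 4.12 TPM, SEMA4B after it at 72.8 ± 4.11 and SEMA6B next at 30.5 ± 0.461.

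**Figure D3:**
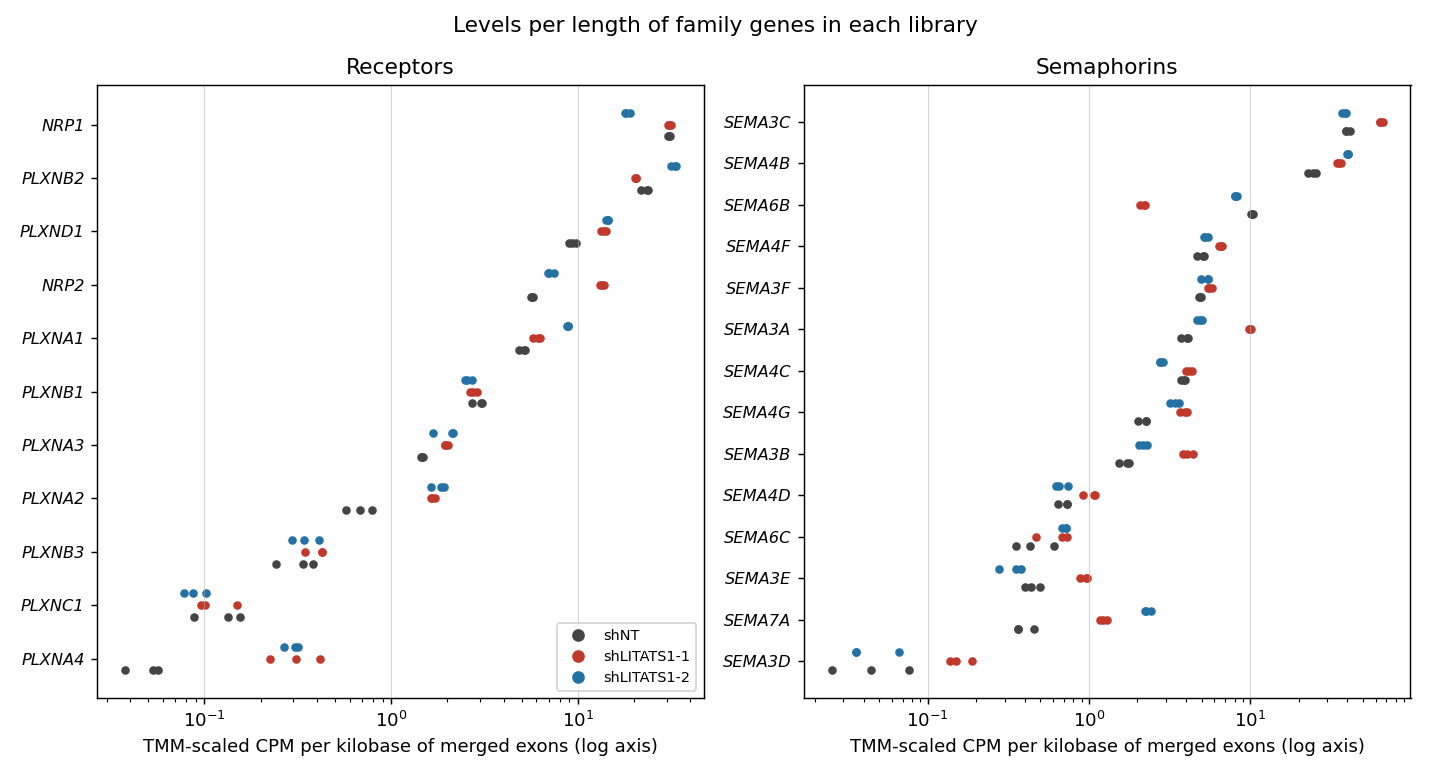
Level per length (TMM-scaled CPM per kilobase of merged exons, log axis) of each tested plexin, neuropilin and semaphorin gene in the 9 libraries, by group. PLXNB2, NRP1 and SEMA3C lead their families with shNT; PLXNA4 is the lowest plexin there, and SEMA6B drops within the semaphorins with shLITATS1-1.

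PLXNA4 gave 0.676% ± 0.155 of the summed TPM of A-class plexins with shNT, 3.18% ± 1.02 with shLITATS1-1 and 2.30% ± 0.140 with shLITATS1-2 (SD, n = 3). Even where it was raised, it remained a small part of the A-class transcripts. PLXNA2 gave 9.33% ± 1.20, 16.7% ± 0.0787 and 13.9% ± 0.772, and PLXNA1 gave 69.8% ± 0.878, 60.5% ± 1.19 and 68.5% ± 2.45. NRP2 supplied 15.6% ± 0.0555 of the neuropilin sum with shNT, 30.3% ± 0.182 with shLITATS1-1 and 28.0% ± 0.155 with shLITATS1-2. Its share was thus higher with both hairpins, beside more NRP2 in the first case and both more NRP2 and less NRP1 in the second. SEMA6B gave 10.4% ± 0.187 of the semaphorin sum with shNT, 1.54% ± 0.0571 with shLITATS1-1 and 7.09% ± 0.214 with shLITATS1-2, and it went from rank 3 to rank 9 with the first hairpin. SEMA4B passed SEMA3C as the leading semaphorin with shLITATS1-2, at 35.0% ± 0.618 against 33.5% ± 0.627.

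The plexins and semaphorins outside the members were tested gene by gene in the same fit. PLXND1, the receptor for SEMA3E, rose by 0.56 (log2, SE 0.037) and 0.62 (SE 0.037), and PLXNA3 by 0.42 (SE 0.073) and 0.43 (SE 0.072). PLXNB3 and PLXNC1 did not pass with either hairpin, but PLXNC1 with shLITATS1-2 (-0.50, SE 0.27) passed without shNT replicate 2 (-0.70). Of the 17 other semaphorins, 11 were tested; SEMA3G, SEMA4A, SEMA5A, SEMA5B and SEMA6A had at most 10 fragments in any library and SEMA6D had 0 in all. With shLITATS1-1, 10 of the 11 rose and 0 fell, beside 30.5% of all genes each way, with a median of 0.84. The 10 include SEMA3D, which passed the filter only through its shLITATS1-1 libraries, where it was high. SEMA6C, also among the 10 (0.43, SE 0.17), did not pass without shNT replicate 1 (0.27) or 3 (0.39). Nor did it pass without shLITATS1-1 replicate 1 (0.31) or 2 (0.37), or with DESeq2 (0.44). With shLITATS1-2, 5 rose and 2 fell, beside 27.8% and 28.9% of all genes, with a median of 0.13. In the direct comparison 8 were lower with shLITATS1-2 and 1 was higher, beside 30.2% and 30.7% of all genes. The 8 also include SEMA3D, whose call was favoured by the filter.

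Secreted class 3 ligands outside the members were among the genes that rose with the first hairpin. Of the 5 tested, 5 were called higher, beside 30.5% of all genes. SEMA3A, which repels axons through NRP1 and A-class plexins, rose by 1.34 (SE 0.046), from 37.0 ± 2.02 to 93.5 ± 1.49 CPM, and stood at 45.5 ± 1.50 with shLITATS1-2. SEMA3B rose by 1.28 (SE 0.079) and SEMA3E by 1.07 (SE 0.13). SEMA3F, the NRP2 ligand, rose by 0.21 (SE 0.062). SEMA3D, with 4 to 12 control fragments, rose by 1.69 (SE 0.34) but passed the filter only through its shLITATS1-1 libraries, so its call was favoured by the filter. SEMA3G, with at most 8 fragments in any library, did not pass. With shLITATS1-2, SEMA3A and SEMA3B rose by 0.30 (SE 0.050) and 0.37 (SE 0.088), whereas SEMA3E fell by 0.41 on the log2 scale (SE 0.15). The SEMA3E fall did not pass without shNT replicate 1 (-0.32), without shLITATS1-2 replicate 1 (-0.29), with DESeq2 (-0.41) or with library size alone (-0.30). All except SEMA3F, 4 of the 5 tested, were lower with shLITATS1-2 than with shLITATS1-1, by -0.92 to -1.78 (log2), beside 30.2% of all genes. The value of -1.78 is that of SEMA3D, whose call was favoured by the filter here too. The fibroblast markers summed to between 2.91 and 3.54 CPM with shNT, between 5.42 and 5.83 with shLITATS1-1 and between 2.03 and 2.40 with shLITATS1-2, without moving as a group. LUM measured 0.461, 3.59 and 0.545 CPM on average, while THY1 was lower with both hairpins (2.29, 1.12 and 0.930), and COL1A2 and DCN had 0 fragments with shNT. The summed neuron markers were also highest with shLITATS1-1, as were MAP2 (1.81, 8.43 and 2.15 CPM on average), RBFOX3 and SNAP25. That list did not move as a group either. SYP was lowest with shLITATS1-1 (4.99, 1.31 and 6.32), and TUBB3 was level between shNT and shLITATS1-1 (2.46, 2.45 and 2.92). The part of either list in these values was not tested.

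Among the class 4 semaphorins outside the members, 3 of 4 tested rose with shLITATS1-1, beside 30.5% of all genes. SEMA4G rose by 0.84 (SE 0.077), SEMA4D, the PLXNB1 ligand, by 0.54 (SE 0.088) and SEMA4F by 0.40 (SE 0.055). All 4 were lower with shLITATS1-2 than with shLITATS1-1, beside 30.2% of all genes and unlike the member SEMA4B. However, SEMA4G (-0.20, SE 0.070) did not pass without shLITATS1-1 replicate 3 (-0.17) or shLITATS1-2 replicate 2 (-0.15), or with library size alone (-0.064). SEMA4C, the PLXNB2 ligand, fell by 0.47 with shLITATS1-2 (SE 0.066), where PLXNB2 itself was higher. The GPI-anchored SEMA7A, which binds PLXNC1 and integrins, rose with both hairpins. It measured 1.74, 1.38 and 1.39 CPM with shNT, 4.46, 4.95 and 4.63 with shLITATS1-1 and 8.64, 8.42 and 9.17 with shLITATS1-2. Its log2 fold changes were 1.64 (SE 0.17) and 2.54 (SE 0.15), and the hairpins differed by 0.90 (SE 0.11, adjusted p = 2.16e-10, edgeR).

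Co-receptors and neuropilin ligands formed a list of 16 genes, of which 11 were tested. With shLITATS1-1, 6 rose and 3 fell, beside 30.5% of all genes each way. L1CAM, an adhesion molecule that associates with NRP1 in SEMA3A reception, rose by 0.90 (SE 0.041) and its relative NRCAM by 0.67 (SE 0.032). With shLITATS1-2, L1CAM rose by 0.13 (SE 0.043) and NRCAM fell by 0.18 (SE 0.033). FLT4, the VEGFC receptor, fell by 0.52 (SE 0.11) with shLITATS1-1 and by 0.56 (SE 0.11) with shLITATS1-2. With the second hairpin 5 rose and 4 fell, beside 27.8% and 28.9% of all genes, so the share that fell was near the background. VEGFC, an NRP2 ligand, rose by 0.45 (SE 0.066) with shLITATS1-1 and 0.61 (SE 0.064) with shLITATS1-2. MET, which pairs with B-class plexins, rose by 0.44 (SE 0.030) and 0.48 (SE 0.030). VEGFA, an NRP1 ligand, rose by 0.18 (SE 0.047) with shLITATS1-1 and fell by 0.33 (SE 0.049) with shLITATS1-2.

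Of 36 genes that act inside the cell with plexins, 20 rose and 5 fell with shLITATS1-1, beside 30.5% of all genes each way. With shLITATS1-2, 15 rose and 8 fell, beside 27.8% and 28.9%. RND1, which binds the cytoplasmic part of plexins, rose by 1.64 (SE 0.049) and 1.41 (SE 0.049). RRAS, the GTPase that plexins turn off, rose by 0.43 (SE 0.044) with shLITATS1-1 and 1.11 (SE 0.042) with shLITATS1-2. LIMK1, a kinase that inactivates cofilin, rose by 0.49 (SE 0.046) and 0.87 (SE 0.044). ROCK1, a kinase that promotes actomyosin contraction, fell by 0.75 with shLITATS1-2 (SE 0.042). DPYSL5, of the collapsin response mediator family, rose by 0.25 (log2, SE 0.090) with shLITATS1-1 and fell by 1.52 (SE 0.11) with shLITATS1-2. It measured 9.47, 10.3 and 10.8 CPM with shNT and 3.67, 3.75 and 3.26 with shLITATS1-2, with no overlap.

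Proteases that process semaphorins or neuropilins changed in both directions. FURIN, which cleaves class 3 semaphorins, rose by 1.41 (SE 0.035) and 1.03 (SE 0.035). ADAM17, a sheddase, fell by 0.83 with shLITATS1-1 (SE 0.050) and rose by 0.22 with shLITATS1-2 (SE 0.045). It was 1.05 higher with shLITATS1-2 than with shLITATS1-1 (SE 0.049, adjusted p = 3.37e-30, edgeR). Of the 8 genes 5 rose and 1 fell with the first hairpin (30.5% of all genes each way), and 4 rose and 1 fell with the second (27.8% and 28.9% of all genes). The gene that fell with the second hairpin, ADAM10, was not called with library size alone or without shNT replicate 1. Among other guidance families (ephrins, netrins, slits and their receptors), 28 of 39 genes were tested. Of these 14 rose and 3 fell with shLITATS1-1 (30.5% of all genes each way), and 15 rose and 5 fell with shLITATS1-2 (27.8% and 28.9%). EPHA7 was called higher with the first hairpin (3.45 against 1.79 CPM on average) and fell by 1.04 (SE 0.25) with the second. EPHA4 rose by 2.18 (SE 0.27) with the first, from 13, 7 and 9 fragments to 36, 41 and 52. EPHB1 had 2, 2 and 0 fragments with shNT, 24, 22 and 18 with shLITATS1-1 and 2, 6 and 2 with shLITATS1-2. UNC5A had 6, 7 and 2 fragments with shNT and NTN1 had 8, 5 and 4, and both were called higher with shLITATS1-1. EPHA4, EPHB1, UNC5A and NTN1 passed the filter through hairpin libraries in which they were high, so these calls were favoured by the filter. The counts of guidance genes that rose include such calls.

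**Figure D4:**
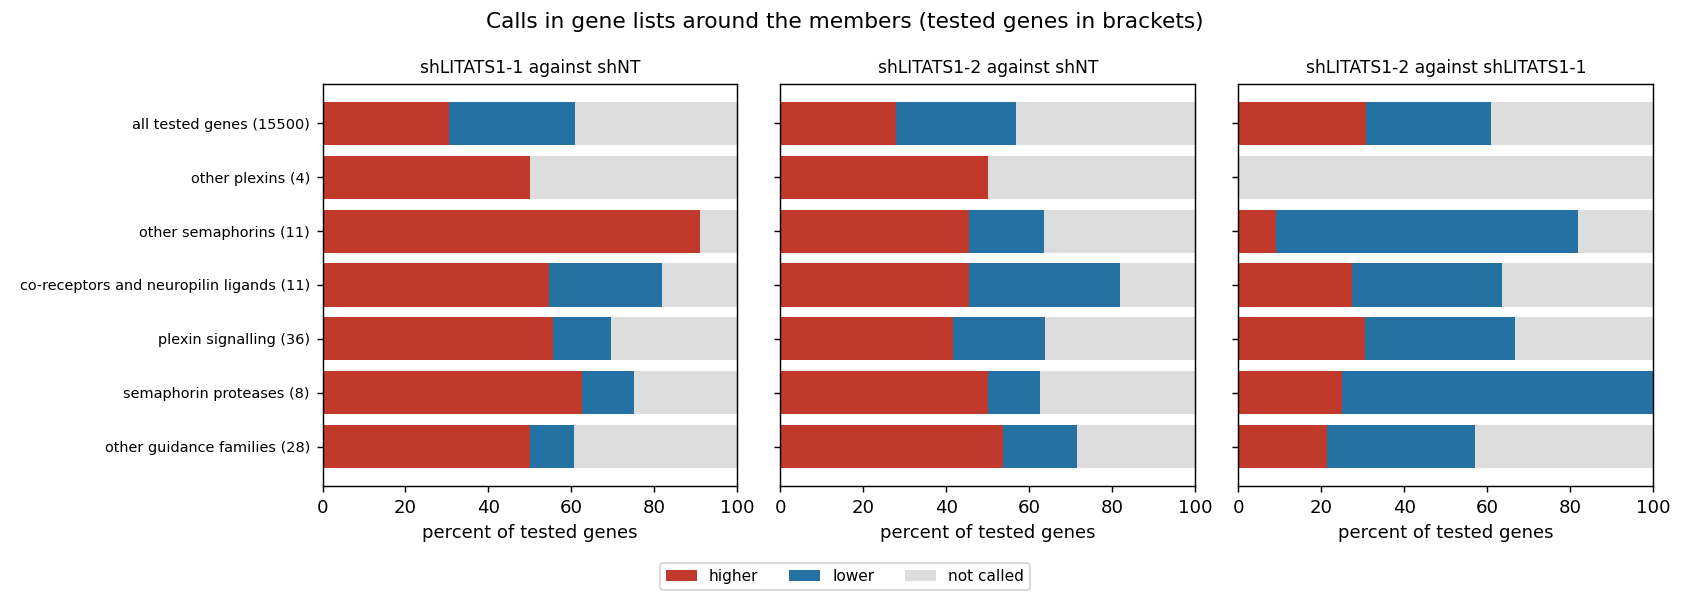
Percent of tested genes called higher, lower or not called (edgeR, adjusted p under 0.05) in each gene list and in all 15500 tested genes, for the 3 contrasts. Of the other semaphorins, 10 of 11 were higher with shLITATS1-1 and 8 of 11 were lower with shLITATS1-2 than with shLITATS1-1. Both counts include SEMA3D, which passed the filter only through its shLITATS1-1 libraries. In the other guidance families, EPHA4, EPHB1, UNC5A and NTN1 passed through hairpin libraries.

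Genes with the profile nearest to PLXNA4 and SEMA6B over the 9 libraries were ranked by the root mean square difference in log2 CPM, after the control mean of each gene was subtracted, among 12208 candidates. PCDH1, a protocadherin, was nearest to PLXNA4 (0.304), followed by the transcription factor MAF (0.306) and LGR6, a receptor for R-spondins (0.344). OSTM1, a lysosomal membrane protein, was nearest to SEMA6B (0.133), then LINC00632 (0.245) and PADI3, a peptidylarginine deiminase (0.268). OSTM1 measured 82.6 CPM on average with shNT, 19.1 with shLITATS1-1 and 74.4 with shLITATS1-2.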

How the data were processed

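RNA from 9 A549 cultures was sequenced on the DNBSEQ platform. Build GRCh38, HTSeq 0.12.4, STAR 2.7.5a, cutadapt 2.10 and FastQC are named in the submitters' processing notes. The sources used here do not state the strand setting, the annotation release or the RNA enrichment. The authors deposited raw counts of fragments per Ensembl gene, with separate rows for unassigned fragments, which were left out of library sizes. Library totals were 24556848 to 24671296 fragments (19610514 to 19989652 in genes), and the precision of low genes is limited by counting error. Symbols were found for 60357 of 60676 gene IDs, and exon lengths came from GENCODE 29.

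All 9 libraries entered 1 fit in edgeR 4.0.16 (R 4.3.3) with TMM factors, filterByExpr with a minimum count of 10 (15500 genes kept), robust quasi-likelihood dispersion and two-sided tests, adjusted by Benjamini-Hochberg over all tested genes at 0.05. SEs are the log2 fold change over the square root of F. Groups were also compared with DESeq2 1.42.0 and the other alternatives listed in the closing section. On counts simulated for shLITATS1-1 against shNT (14926 genes), 93.9% of 2-fold and 60.4% of 1.25-fold changes were recovered, and 5.33% of calls were false. Few genes were changed there (49 by 2-fold and 48 by 1.25-fold among them) and most were left equal. In the data 61.0% of genes were called, so these rates need not hold for them. Same-numbered libraries did not deviate together (correlations of -0.061 to 0.036), so the numbers were not used as pairs. The members and the gene lists were chosen with earlier results of these data known. Named genes of the co-receptor, signalling, protease and guidance lists came from the 3 highest and 3 lowest called in each contrast, and the 3 nearest profiles were named for PLXNA4 and SEMA6B. Promoter windows came from RefSeq (GRCh38.p14). They were found for 8 of the 10 members.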

Additional observations from a re-analysis of the deposited data

Results flagged for a closer look

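A gene was listed here when the hairpins called it in opposite directions against the same controls. The direct test of shLITATS1-2 against shLITATS1-1 was also required to pass, and the value is that log2 difference. That contrast is the difference of the contrasts against shNT in the same fit. Opposite calls therefore nearly fix its outcome, and it adds no further support. PLXNB2 was the only member listed, with 0.68. SEMA3E differed by -1.48, although its fall with shLITATS1-2 was not called with DESeq2 (-0.41) or with library size alone (-0.30). Among co-receptors and neuropilin ligands, NRCAM differed by -0.86 and VEGFA by -0.51. In the signalling list RND3 differed by -0.74, RAP1B by -0.42 and DPYSL5 by -1.77. RND3 and RAP1B fell little with shLITATS1-2 (-0.17 and -0.15), and library size alone gave 4 lower in that list, in place of 8. The sheddase genes ADAM10 and ADAM17 differed by -0.53 and 1.05, in opposite senses to each other. The fall of ADAM10 with shLITATS1-2 (-0.12, SE 0.033) was not called with library size alone or without shNT replicate 1. Of the other guidance receptors ROBO1 differed by -0.98, EPHA7 by -1.99 and EPHB3 by 1.75. Opposite calls were made for 9.01% of all tested genes. They were made for 1 of 10 members, 0 of 4 other plexins, 1 of 11 other semaphorins and 2 of 11 co-receptors and neuropilin ligands. In the other lists they were made for 3 of 36 signalling genes, 2 of 8 proteases and 3 of 28 other guidance genes.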

How the results depend on the processing

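Scaling by library size alone, with no TMM factor, moved the median of all genes by 0.11 (log2) for shLITATS1-2 against shNT and by 0.13 for shLITATS1-2 against shLITATS1-1. The calls were then 6054 higher and 2968 lower in place of 4302 and 4485, and 6911 and 3293 in place of 4755 and 4684. Under that scaling values near 0 changed sign: for shLITATS1-2 against shLITATS1-1, PLXNA4 (0.037), PLXNB1 (0.042) and SEMA3F (0.049), for shLITATS1-1 against shNT, NRP1 (-0.008), and for shLITATS1-2 against shNT, SEMA3C (0.049), SEMA3D (0.023) and SEMA4D (0.043). PLXNB1 with shLITATS1-2 then missed the threshold (-0.064), and PLXNA2 between the hairpins passed it (0.24). With only the 6 libraries compared, PLXNA3 between the hairpins was -0.0025.

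With shLITATS1-2 against shNT, library size alone gave 1 lower among other plexins and semaphorins, 4 lower in the signalling list, 0 among proteases and 3 lower among other guidance genes. Between the hairpins it gave 2 higher among other plexins and semaphorins, 5 among co-receptors and 19 in the signalling list. A minimum count of 50 left 8 other guidance genes higher and 1 lower with shLITATS1-1, and 9 higher with shLITATS1-2, as fewer genes were tested. DESeq2 and an adjusted p under 0.01 each gave 1 lower other guidance gene with shLITATS1-1 and 1 lower other plexin or semaphorin with shLITATS1-2.

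Leaving out each library in turn, gave 1 to 3 lower other plexins and semaphorins and 0 to 1 lower proteases with shLITATS1-2; the fewest came without shNT replicate 1 and, for the first list, also without shLITATS1-2 replicate 1. Values near 0 changed sign for 3 genes between the hairpins (PLXNA4 from -0.29 to 0.15, PLXNA3 from -0.058 to 0.12, SEMA6C from -0.0004 to 0.29). They also did for NRP1 (-0.0029 to 0.023) and PLXNC1 (-0.35 to 0.049) with shLITATS1-1, and for PLXNB3 (-0.026 to 0.28) and SEMA3D (-0.44 to 0.39) with shLITATS1-2.

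With the replicate block the members called stayed at 6 higher and 2 lower with shLITATS1-1, 6 and 3 with shLITATS1-2, and 4 and 3 between the hairpins; it changed no count by over 1.5 times.

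Longest-transcript lengths put the NRP2 share at 16.4%, 31.7% and 29.3% and the SEMA6B share at 8.34%, 1.22% and 5.45% (shNT, shLITATS1-1, shLITATS1-2). TMM-scaled CPM per kilobase, chosen after seeing the data, gave ratios of the summed level to shNT of 1.10 and 1.47 for plexins, 1.22 and 0.698 for neuropilins and 1.43 and 1.16 for semaphorins (shLITATS1-1, shLITATS1-2), against 1.16, 1.76, 1.28, 0.836, 1.50 and 1.39 by TPM. Leave-one-out ranges for the plexin ratio by TPM were 1.14 to 1.18 and 1.73 to 1.79. Depth limits the genes with few fragments, such as PLXNA4, PLXNC1, SEMA3D and EPHB1.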
